A study of Mus musculus with 4 samples.

Results

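The genes described here carry the machinery that decides between caspase-8 activity and necroptosis, the lytic cell death executed by MLKL. They were 7 listed symbols, Ripk1, Ripk3, Mlkl, Casp8, Fadd, Cflar and Zbp1, matched by gene name, and all 7 were found among 55536 annotated genes. The data are 4 RNA-seq libraries of polyadenylated RNA from macrophages grown from the bone marrow of C57BL/6J mice, a primary cell type. All 4 formed 1 group, in which the cells had received a stimulus (100 ng/mL, 60 minutes), and are numbered as biological replicates 1 to 4. One label calls it Lipid A, the lipopolysaccharide moiety bound through Toll-like receptor 4, while others call it lipoprotein A, so only the word stimulus is used below. Age and sex were not collected. The 4 libraries carry 1 donor label and nothing places them in separate animals or cultures, so p-values between libraries measure only a spread that may be technical. No unstimulated cells were analysed here, so no value below is a response to the stimulus.

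Death receptors such as the TNF receptor, and Toll-like receptors through TRIF, bring RIPK1, the adaptor FADD and caspase-8 into 1 complex. There caspase-8, paired with the catalytically inactive homologue cFLIP that Cflar encodes, restrains death and cleaves RIPK1 and RIPK3. Where caspase-8 is blocked, RIPK1 or the Z-nucleic acid sensor ZBP1 can engage RIPK3 through a short shared stretch, the RHIM (RIP homotypic interaction motif). RIPK3 then phosphorylates the pseudokinase MLKL, which breaches the plasma membrane.

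The coding stretches that the results below turn on are shown as 5′ to 3′ sense-strand DNA, from the GENCODE M21 transcripts on mm10. The RHIM core, 4 residues that open with isoleucine or valine followed by glutamine, then isoleucine or valine and glycine, was searched in the reading frame of 11 transcripts of the members. It was found once each in Ripk1-201 (codon 528 of 656), Ripk3-201 (codon 448 of 486) and Zbp1-201 (codon 192 of 411), and these stretches are shown because RHIM contacts join the 3 proteins. Capitals mark the codons of the core.
Ripk1-201: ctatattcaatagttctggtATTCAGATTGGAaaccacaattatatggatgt
Ripk3-201: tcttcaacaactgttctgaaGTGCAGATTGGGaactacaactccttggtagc
Zbp1-201: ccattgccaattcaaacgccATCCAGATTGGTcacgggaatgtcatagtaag
They lie at chr13:34030058-34030109 on the plus strand, chr14:55785285-55785336 on the minus strand and chr2:173212122-173212173 on the minus strand. No match was found in the other 8 transcripts searched, among them Zbp1-202.

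The active-site motif of caspases, glutamine, alanine and cysteine, then any residue and glycine, was searched in the same 11 transcripts. It was found at codon 360 of 480 in Casp8-202 and at codon 380 of 500 in Casp8-203. Cflar-205 and Cflar-204 held no match, and cFLIP is known to lack the catalytic cysteine. The Casp8 stretch, at chr1:58844593-58844647 on the plus strand, has the motif in capitals.
Casp8-202: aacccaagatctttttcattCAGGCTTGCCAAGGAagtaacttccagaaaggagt

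All 7 genes were expressed in every library, and their mean levels spanned the range from 6.98 TPM for Fadd to 195 TPM for Cflar. TPM is a relative level that takes transcript length into account. All 7 genes had 1 TPM or more in each of the 4 libraries, against 18.5% of all genes and 43.8% of protein-coding genes. The library depths were 26917324, 30042947, 35277710 and 39438414 gene counts in replicates 1 to 4. In bulk RNA a lower level cannot be told apart from fewer cells of a type.

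Cflar was the most abundant of the 7 genes, at 207.42, 210.54, 169.09 and 192.96 TPM in replicates 1 to 4. Its mean of 195 ± 18.9 TPM (SD, n = 4) ranked 641 among 22028 protein-coding genes. Casp8, the initiator protease, stood at 64.69, 67.48, 73.4 and 54.87 TPM, a mean of 65.1 ± 7.73 TPM (SD, n = 4). The 2 genes are neighbours on chromosome 1 on the plus strand, with 36489 bases between the end of Cflar (58711508 to 58758884) and the start of Casp8 (58795374 to 58847503). Cflar exceeded Casp8 in 4 of 4 libraries, with ratios of 3.21, 3.12, 2.30 and 3.52, a geometric mean of 3.00. The exact 2-sided sign-flip permutation test gave p = 0.13, adjusted 0.13 over 6 pairs, the smallest p that 4 libraries allow. Fadd, which links death receptors to caspase-8, was the lowest member at 6.9, 6.54, 7.25 and 7.24 TPM, a mean of 6.98 ± 0.337 TPM (SD, n = 4). Its level was 0.107, 0.0969, 0.0988 and 0.132 of that of Casp8 (exact permutation p = 0.13, adjusted 0.13). Fadd lies on chromosome 7 from 144577318 to 144582463 on the minus strand.

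The kinases of the pathway stood at lower levels than Casp8. Ripk1, a kinase and scaffold of both survival and death complexes, had 41.49, 36.52, 43.91 and 37.72 TPM, a mean of 39.9 ± 3.41 TPM (SD, n = 4). Ripk3 had 17.72, 10.5, 8.63 and 10.2 TPM, a mean of 11.8 ± 4.06 TPM (SD, n = 4), and replicate 1 stood above the other 3. The deposited credibility interval of Ripk3 in replicate 1 ran from 15.4 to 23.5 TPM, and the intervals of the other libraries ended at 15.3, 14.0 and 15.4 TPM. These intervals are centred on a posterior mean and need not contain the TPM value. Ripk3 was lower than Ripk1 in every library, at 0.427, 0.288, 0.197 and 0.270 of its level (exact permutation p = 0.13, adjusted 0.13). Casp8 was higher than Ripk1 in every library, by 1.56, 1.85, 1.67 and 1.45 times (exact permutation p = 0.13, adjusted 0.13). Ripk1 lies on chromosome 13 (34002363 to 34037147, plus strand) and Ripk3 on chromosome 14 (55784995 to 55788865, minus strand).

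Mlkl, the executioner, had 24.34, 31.06, 19.21 and 27.79 TPM, a mean of 25.6 ± 5.07 TPM (SD, n = 4). It was higher than its kinase Ripk3 in 4 of 4 libraries, by 1.37, 2.96, 2.23 and 2.72 times (exact permutation p = 0.13, adjusted 0.13). Replicate 1 had the smallest Mlkl to Ripk3 ratio and the highest Ripk3 level. Zbp1 had 58.42, 128.32, 47.03 and 113.77 TPM, a mean of 86.9 ± 40.2 TPM (SD, n = 4). Replicates 2 and 4 were high and replicates 1 and 3 low, and the deposited credibility intervals of the high pair (114 to 127 and 105 to 115 TPM) lay apart from those of the low pair (49.9 to 58.8 and 42.1 to 48.8 TPM). Zbp1 exceeded Ripk3 by 3.30, 12.2, 5.45 and 11.2 times (exact permutation p = 0.13, adjusted 0.13). Mlkl lies on chromosome 8 from 111311797 to 111338177 and Zbp1 on chromosome 2 from 173206612 to 173218923, both on the minus strand.

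By mean level the order was Cflar, Zbp1, Casp8, Ripk1, Mlkl, Ripk3 and Fadd. For 5 of the 6 neighbouring pairs the ranges over libraries did not overlap, and the higher gene was higher in 4 of 4 libraries (exact permutation p = 0.13 for each). The exception was Zbp1 over Casp8, where Zbp1 was higher in 2 of 4 libraries and the mean difference was 0.30 ± 0.82 (SD, n = 4) on the log2(TPM + 0.1) scale (exact permutation p = 0.500). These separations depend on the quantification. In the second one, the ranges of Ripk1 (25.1 to 39.6 TPM) and Mlkl (19.3 to 31.3 TPM) overlapped, and Ripk1 was not the higher in replicate 2 (25.1 against 25.3 TPM). The ranges of Ripk3 (6.33 to 9.57 TPM) and Fadd (4.17 to 6.41 TPM) overlapped there too.

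**Figure D1:**
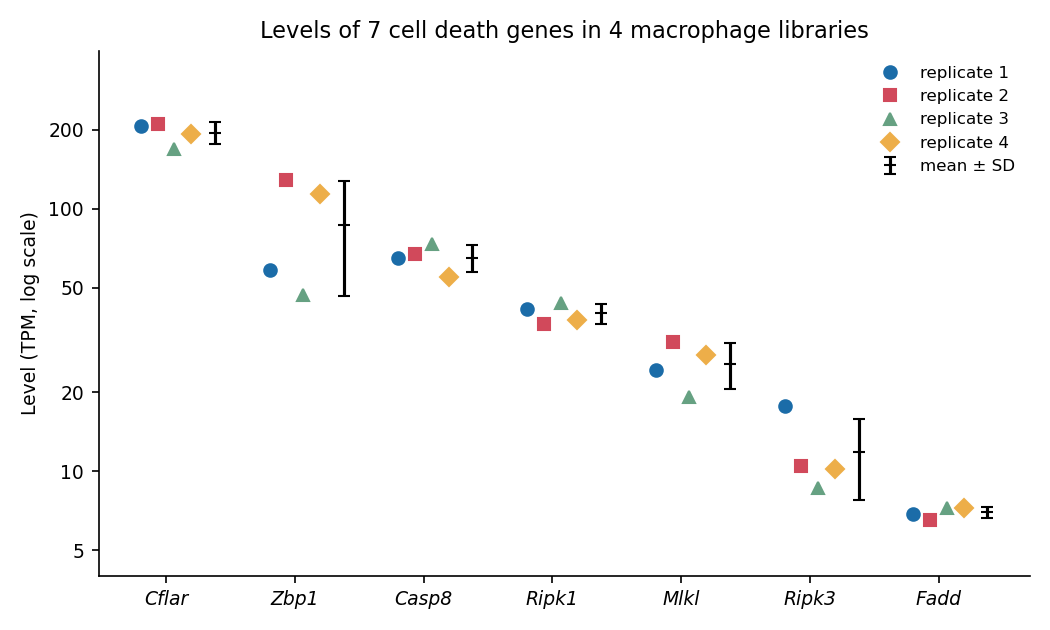
Level of each gene in TPM on a log axis, with 1 point per library (replicates 1 to 4, by colour and shape) and, at the right of each gene, the mean with an error bar of 1 SD over 4 libraries. Cflar lies highest at 169.09 to 210.54 TPM and Fadd lowest at 6.54 to 7.25 TPM, and the Zbp1 points form a high and a low pair.

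The spread between libraries separated Zbp1 from the other 6 members. Spread was measured on gene counts scaled by effective library size (CPM), with a chi-square test against counting noise, and a gene was called variable when the adjusted p was below 0.05 and its highest and lowest CPM differed at least 2-fold. Zbp1 was the 1 member called, beside 33.0% of all genes tested and 25.3% of those with 1 TPM or more in every library. Its level was 33.4, 82.5, 34.7 and 81.2 CPM in replicates 1 to 4, a 2.47-fold range (adjusted chi-square p = 1.08e-273). With each library left out in turn Zbp1 remained called, with ranges of 2.38 to 2.53-fold. This was fixed by the values above, since a high and a low library always remained. The share of all genes called fell to 16.1% without replicate 1. With a cut of 1.5-fold in place of 2, Ripk3 and Mlkl were called too, beside 58.2% of all genes tested.

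The spread of Zbp1 did not follow the number of read files recorded for a library, which was 6 for replicates 1 and 2 and 4 for replicates 3 and 4. Within the pair with 4 files replicate 4 had 2.34 times the Zbp1 CPM of replicate 3, and within the pair with 6 files replicate 2 had 2.47 times that of replicate 1. Between libraries with 4 and with 6 read files no gene was called by edgeR's quasi-likelihood test (0 of 12701, or 0% called). By the same test 290 genes (2.28%) had an unadjusted p below 0.05, none of them a member. At so small a share, the absence of so few members says little about them. Estimates for the members, 4 minus 6 read files, ran from -0.20 (Ripk3) to 0.22 (Fadd) on the log2 scale, each with an adjusted p of 1.000 by edgeR. DESeq2 called 35 genes, again no member, and edgeR called 1 gene without replicate 1 and 98 without replicate 2.

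The other 6 members varied by 1.19-fold (Fadd, 15.6 to 18.5 CPM) to 1.56-fold (Mlkl, 22.4 to 34.9 CPM). Their spread exceeded counting noise all the same, with adjusted chi-square p-values from 3.67e-89 (Cflar) to 0.00604 (Fadd), as did that of 88.6% of all genes tested. The median fold range of the 7 members was 1.28, beside 1.68 over all genes tested. Genes averaging as few as 10 counts were tested, whereas no member fell below 292 counts in any library. Counting noise widens the range of low-count genes, and a median over genes of like count was not computed. The median biological coefficient of variation of the members by edgeR was 21.7%, beside 27.2% over all genes. The highest library was not the same throughout. Ripk1 and Casp8 were highest in replicate 3 (109 and 89.7 CPM), Ripk3 and Cflar in replicate 1 (14.8 and 707 CPM), and Mlkl, like Zbp1, in replicates 2 and 4 (34.9 and 33.3 CPM, beside 26.7 and 22.4 CPM in replicates 1 and 3).

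**Figure D2:**
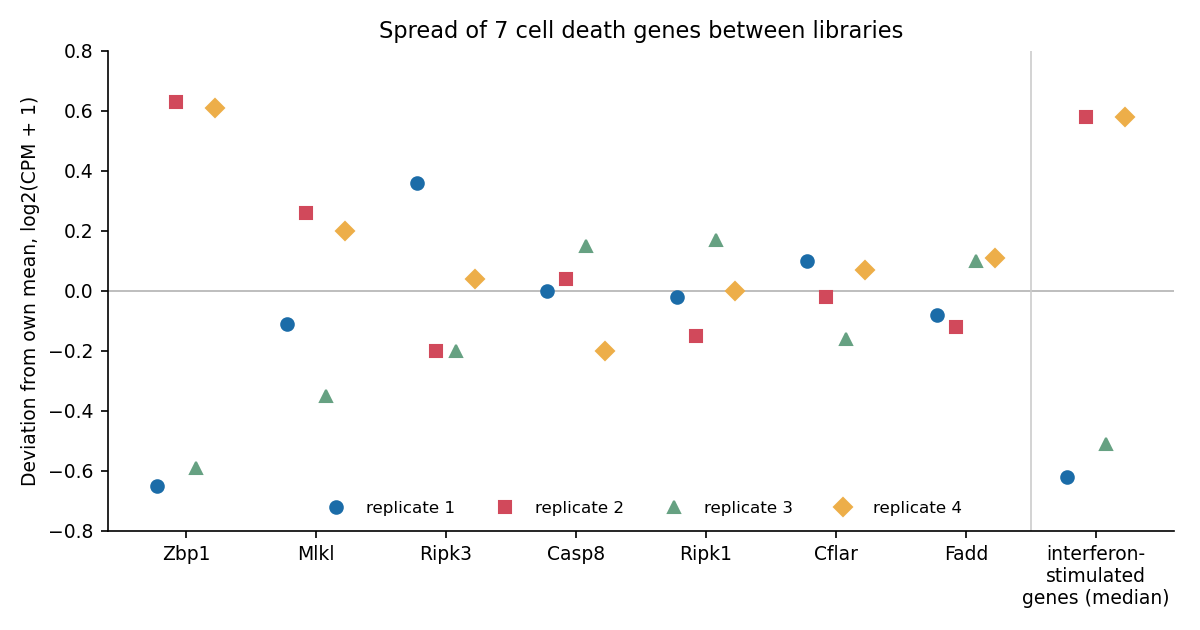
Deviation of each gene in each library from its own mean over 4 libraries, on the log2(CPM + 1) scale, with the median deviation of 19 interferon-stimulated genes in the last column. Zbp1 lies at 0.63 and 0.61 in replicates 2 and 4 and at -0.65 and -0.59 in replicates 1 and 3, and the interferon-stimulated genes lie at 0.58 and 0.58 and at -0.62 and -0.51.

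Zbp1 is itself induced by type I interferon in mouse cells, and a list of 19 interferon-stimulated genes, which includes the interferon beta gene Ifnb1, was set beside it. Of the 19 genes, 14 were called variable, beside 33.0% of all genes tested. Each of the 14 was highest in replicate 2 (7 genes) or replicate 4 (7 genes). The share of all called genes that peaked in these 2 libraries was not computed, here or for the lists below. The pattern is therefore not shown to be particular to this list. Ifnb1 had 49.87, 179.73, 74.57 and 262.71 TPM. The most abundant of the list, the chemokine gene Cxcl10, had 416.55, 1533.28, 246.97 and 1485.01 TPM, and the antiviral gene Rsad2 had 132.86, 484.82, 191.54 and 575.38 TPM. At the low end of the list were Mx2 (5.78, 20.70, 7.88 and 27.72 TPM) and Oas2 (13.56, 26.80, 13.98 and 22.16 TPM). These too were at their lowest in replicates 1 and 3. The genes whose pattern over the 4 libraries was most like that of Zbp1, among 2376 candidates called variable, were Abca7, a lipid transporter, Tiparp, a mono-ADP-ribosyltransferase, and Isg20, an exonuclease. Each had a root mean square difference from Zbp1 of 0.06 on the centred log2(CPM + 1) scale, and 177 candidates lay within 0.25. Tiparp, for example, had 49.27, 112.3, 48.79 and 103.13 TPM. Whether interferon had a part in the spread of Zbp1 was not tested, and the spread may be technical.

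Markers of the macrophage and of other cell types also differed between libraries. All 8 macrophage markers reached 1 TPM in every library, with a summed level of 19637, 35202, 20390 and 28238 TPM. Most of it came from the lysozyme gene Lyz2, which was highest in replicates 2 and 4 as Zbp1 was. By TPM, Csf1r, Cd14 and Adgre1 were likewise highest in replicates 2 and 4. Itgam, however, was highest in replicate 1 and Cd68 and Mertk in replicate 3, and Fcgr1 ran only from 167.68 to 186.78 TPM. Of 8 neutrophil and granulocyte precursor markers, 4 reached 1 TPM in every library, and their sum was 198, 108, 728 and 69.0 TPM, highest in replicate 3, where Ripk1 and Casp8 were also highest by CPM. Ly6g was at 0 in 3 of the 4 libraries. T and NK cell markers summed to 0.400 to 1.10 TPM, B cell markers to 0.980 to 2.91 TPM and dendritic cell markers to 2.90 to 7.68 TPM. The B cell and dendritic cell sums were also highest in replicate 3. Stromal and endothelial markers summed to 7.73, 37.1, 11.6 and 29.3 TPM, with Vwf the largest part in each library (5.29, 35.77, 9.81 and 28.26 TPM). Ribosomal RNA took 12.4, 3.43, 4.70 and 7.28% of the gene counts. The part of any of these in the spread of the members was not tested.

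The transcripts of Zbp1 divided between a full-length and a short coding form. Zbp1-201 has 411 codons in 1989 bases and Zbp1-202 has 187 codons in 770 bases. They share 460 coding bases and then diverge, Zbp1-202 into an exon of its own, so that it ends before the RHIM codons shown above. The sequences at the point of divergence, 20 shared coding bases followed by the first 40 bases of each form in capitals, were as follows.
Zbp1-201: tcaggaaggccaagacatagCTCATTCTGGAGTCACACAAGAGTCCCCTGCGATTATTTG
Zbp1-202: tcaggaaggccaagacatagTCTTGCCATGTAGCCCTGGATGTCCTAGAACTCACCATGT
They are spliced stretches on the minus strand, within chr2:173212227-173215696 for Zbp1-201 and chr2:173213870-173215696 for Zbp1-202.

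By TPM the short form was the larger in every library. Zbp1-202 stood at 40.5, 81.6, 25.8 and 66.9 TPM and Zbp1-201 at 17.6, 43.9, 20.6 and 44.9 TPM. The short form thus held 69.7, 65.0, 55.6 and 59.8% of the coding TPM, a mean of 62.5 ± 6.15% (SD, n = 4), and 71.9, 65.4, 52.5 and 57.3% in the second transcript table. Its share was highest in replicate 1 and lowest in replicate 3 in both tables. This split depends on the scale, since by estimated counts, which grow with length, Zbp1-202 held a mean of 31.7% of the gene. Replicates 2 and 4 were high for both forms, so the high and low libraries of Zbp1 were the same for each. The retained-intron transcript Zbp1-203 held 0.599, 2.20, 1.21 and 1.71% of the TPM.

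**Figure D3:**
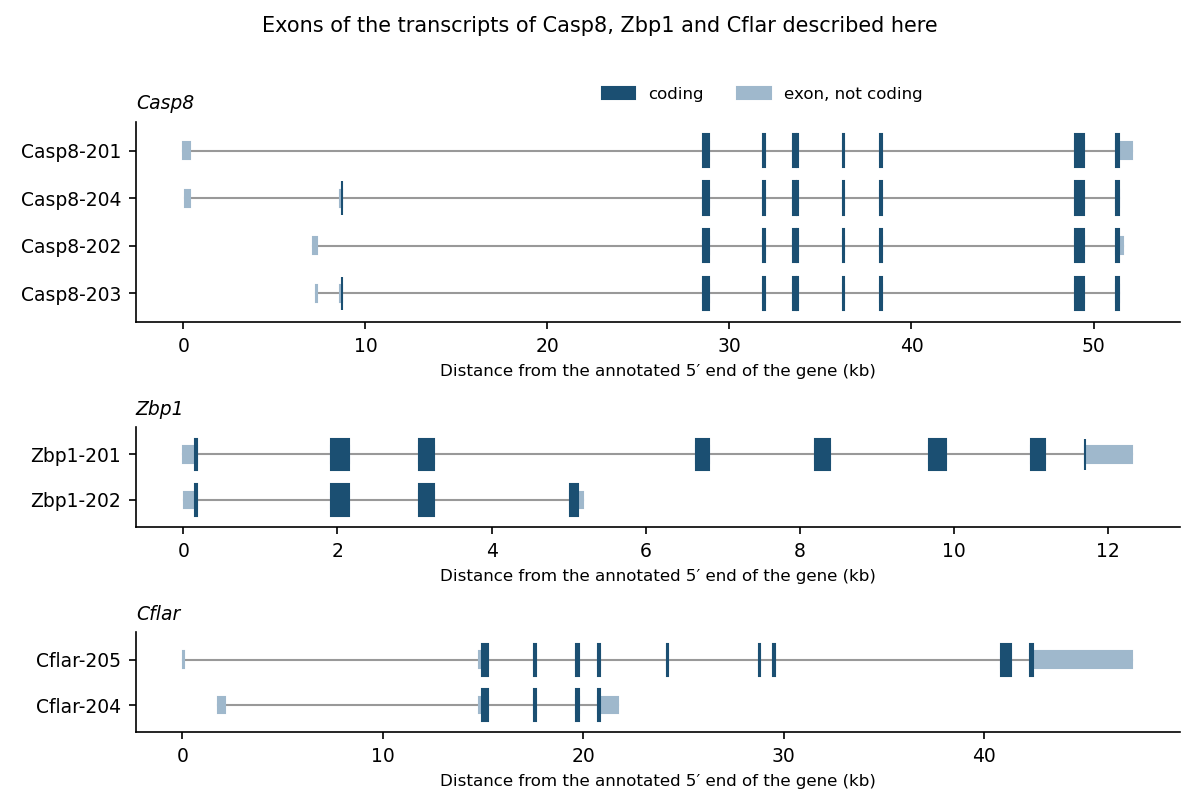
Exons of the named transcripts of Casp8, Zbp1 and Cflar, drawn to scale in kb from the annotated 5′ end of each gene in the direction of transcription, with coding parts tall and dark and the other exon parts low and pale. Casp8-201 and Casp8-202 begin 7128 bases apart, and Zbp1-202 and Cflar-204 end before the later coding exons of Zbp1-201 and Cflar-205.

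Casp8 TPM was assigned to transcripts of both annotated first exons, in proportions that differed between libraries. Casp8-201 and Casp8-204 begin at the upstream first exon, Casp8-202 and Casp8-203 at the downstream one, and the start sites of Casp8-201 and Casp8-202 are 7128 bases apart. The upstream pair had 32.6, 25.9, 15.6 and 17.7 TPM in replicates 1 to 4 and the downstream pair 32.1, 41.5, 57.8 and 37.2 TPM. The upstream share was 50.4, 38.4, 21.3 and 32.2%, a mean of 35.6 ± 12.2% (SD, n = 4), so that replicate 1 split evenly and replicate 3 lay mostly downstream. In the second transcript table it was 43.2, 31.6, 23.5 and 30.9%, with the same highest and lowest library. In the first table the libraries with 4 read files (21.3 and 32.2%) lay below those with 6 (50.4 and 38.4%), and in the second table likewise (23.5 and 30.9%, against 43.2 and 31.6%). The share of Zbp1-202 fell on the same sides (55.6 and 59.8% with 4 read files, 69.7 and 65.0% with 6). With 2 libraries a side, the part of the read files in these shares was not tested. Casp8-201 and Casp8-202 also differ in where they end, so the shares do not rest on the first exons alone.

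The start site alters the untranslated leader, whereas an alternative coding exon alters the protein. Casp8-201 and Casp8-202 encode 480 codons, and Casp8-203 and Casp8-204 encode 500, by 60 further coding bases near the start. The longer coding form held 13.1, 10.2, 8.11 and 11.3% of the Casp8 TPM in the first table and 37.2, 26.8, 23.4 and 25.7% in the second, and the ranges of the 2 tables did not overlap. The promoter window of the downstream start, which carried the larger mean share, is shown with the bases from the start site on in capitals (RefSeq, GRCm38.p6, chr1:58802252-58802551, plus strand).
Casp8 downstream start: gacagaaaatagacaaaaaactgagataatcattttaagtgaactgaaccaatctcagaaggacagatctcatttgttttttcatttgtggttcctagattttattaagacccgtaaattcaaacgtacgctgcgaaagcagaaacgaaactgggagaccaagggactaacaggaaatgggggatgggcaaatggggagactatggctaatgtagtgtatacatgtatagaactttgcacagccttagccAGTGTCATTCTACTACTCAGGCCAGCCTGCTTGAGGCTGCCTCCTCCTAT

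Promoter windows, 250 bases before to 50 after a start, were found in the RefSeq table for 6 of the 7 members, with 2 windows for Ripk1, and not for Zbp1. They were searched on both strands for the core of interferon response elements (GAAA, any 2 bases, GAAA), TTCNNNGAA (the STAT palindrome), the NF-kB consensus and TATAAA. Of 32851 windows in the table, 3.44% held the interferon element core, 8.30% TTCNNNGAA, 8.46% the NF-kB consensus and 13.6% TATAAA. The interferon element core was found in the Ripk1 window of Ripk1-203, beginning 5 bases before the start, and on the reverse strand of the Cflar window, 15 bases after it. TTCNNNGAA was found in the same Ripk1 window and TATAAA in the Cflar window. The other 5 windows, Casp8 among them, held none of the 4 motifs, and no window held the NF-kB consensus. The Casp8 window covers the downstream start only, and the upstream start was not searched. A match is a description of letters and not a bound site.

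**Figure D4:**
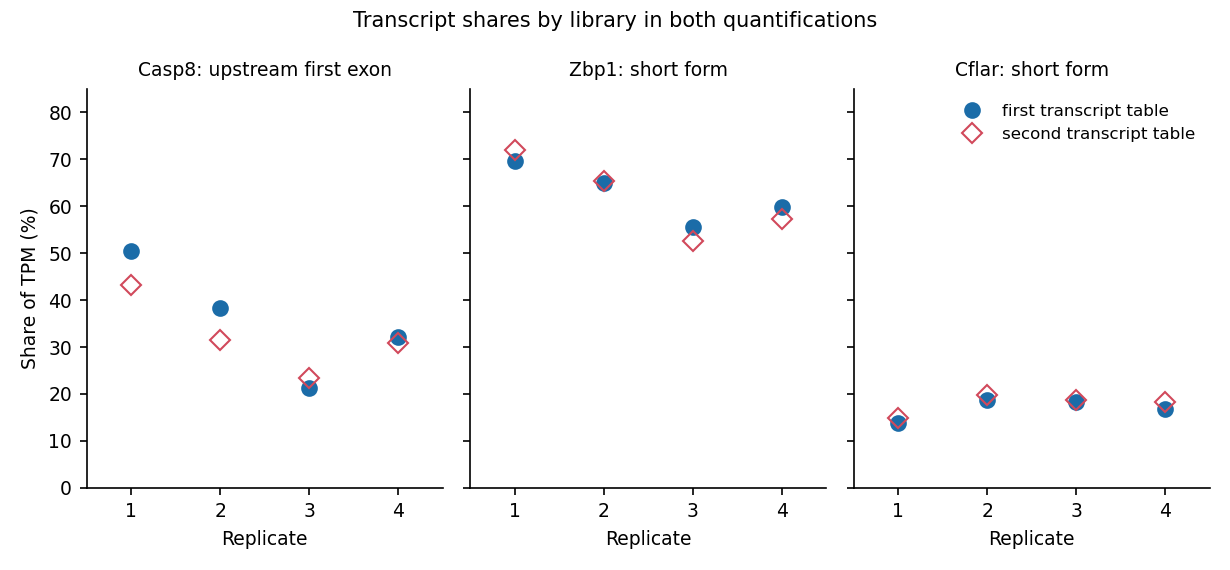
Share of TPM, in %, held by Casp8 transcripts from the upstream first exon (of all Casp8 transcripts), by Zbp1-202 and by Cflar-204 (both of the coding transcripts of their gene) in each library, from the first transcript table (filled circles) and the second (open diamonds). The upstream share of Casp8 runs from 21.3 to 50.4% in the first table, and the short form of Cflar stays between 13.8 and 19.7% in both.

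Cflar was expressed mostly as the long coding form, which carries the inactive caspase-like region. Cflar-205 has 481 codons, and Cflar-204 has 215, with 612 coding bases in common and 33 of its own, read on from a shared exon into the intron. Both forms keep the part of the protein that binds FADD and caspase-8, and only the long one continues into the caspase-like region. The stretch where they part is shown with the bases after the last shared coding base in capitals.
Cflar-205: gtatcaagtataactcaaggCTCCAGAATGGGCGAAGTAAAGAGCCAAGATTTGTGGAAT
Cflar-204: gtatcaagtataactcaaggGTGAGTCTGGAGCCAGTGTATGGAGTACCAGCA
They lie on the plus strand, the first spliced within chr1:58732307-58735697 and the second unspliced at chr1:58732307-58732359.

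The long coding transcripts stood at 165, 143, 125 and 144 TPM and the short one at 26.4, 33.0, 27.8 and 29.4 TPM. The short form held 13.8, 18.8, 18.2 and 16.9% of the coding TPM, and 14.9, 19.7, 18.7 and 18.3% in the second table. In each table replicate 1 had the smallest share and the other 3 libraries lay close together. Non-coding Cflar transcripts held 7.60, 16.3, 9.65 and 9.90% of all Cflar TPM, highest in replicate 2, as in the second table (12.6, 20.1, 11.2 and 11.7%).

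Mlkl was read almost wholly as Mlkl-202, with 464 codons, which held 94.3, 91.8, 89.8 and 87.7% of the TPM. Mlkl-201, with 24 further coding bases and 472 codons, held 5.67, 8.21, 8.23 and 12.3%, and 6.38, 13.4, 13.6 and 12.2% in the second table. The inserted bases are shown in capitals between flanks common to both transcripts, spliced within chr8:111312058-111314984 on the minus strand.
Mlkl-201: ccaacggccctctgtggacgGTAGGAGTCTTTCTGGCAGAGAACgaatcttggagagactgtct
The second table placed 80.0, 68.8, 75.3 and 69.3% in Mlkl-202 and gave 13.6, 16.7, 9.23 and 17.8% to Mlkl-204, a 593-base transcript with an incomplete coding sequence that was listed at 0 in every library of the first table.

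For Ripk1 the 2 leading transcripts encode the same 656 codons from start sites 511 bases apart. Ripk1-201 held 80.6, 79.2, 81.5 and 78.0% of the TPM and Ripk1-203, with a long last exon, 18.7, 20.3, 18.2 and 20.8%. Their spread over libraries was small beside that of the Casp8 start sites. Ripk1 shares 511 exonic bases (6.12%) with the pseudogene Gm17084 on the same strand and 241 (2.89%) with Serpinb6a on the other, and Serpinb6a was listed at 552.1 to 1181.7 TPM. The strand setting of the counting is not given in the sources used here, so reads in these bases are uncertain.

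Ripk3 had 1 leading coding transcript, Ripk3-201, at 75.5, 84.5, 87.2 and 94.9% of the TPM. A 478-base retained-intron transcript, Ripk3-206, was listed at 4.14, 1.63, 0 and 0 TPM in the first table, or 23.4, 15.5, 0 and 0% of the gene, and at 0 in every library of the second. In replicates 1 and 2 it rested on only 16.4 and 7.18 expected counts, of 405 and 292 for the gene. Its TPM is part of the Ripk3 levels and ratios given above. The coding transcripts of Ripk3 alone had 13.6, 8.87, 8.62 and 10.2 TPM, with replicate 1 still highest. In the second table, where no retained intron was listed, Ripk3 had 9.57, 6.33, 7.31 and 8.43 TPM. Fadd has 1 annotated transcript, of 205 codons, and shares 239 exonic bases (6.12%) with the antisense gene Faddos, which was listed at 0 to 0.28 TPM.

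Around these members, 6 lists of the wider pathway were described by level and by the same call of variability, for which 33.0% of all genes tested were called. The list of death receptors, interferon receptors and ligands was carried by Tnf and the TNF receptors. Of its 11 genes, 7 reached 1 TPM in every library, and 3 of 9 tested were called variable. Tnf had 5552 ± 1022 TPM (SD, n = 4) and Tnfrsf1b, the second TNF receptor, 344 ± 36.1 TPM (SD, n = 4). Fasl and Tnfrsf25, at the bottom, did not pass 0.07 TPM in any library. The called genes were Fas (10.05, 30.18, 20.57 and 14.63 TPM), Tnfsf10, which encodes TRAIL (0.81, 5.55, 0.74 and 3.59 TPM), and the TRAIL receptor gene Tnfrsf10b (2.12, 1.11, 0.57 and 0.71 TPM).

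The receptor complex and the ubiquitin control of RIPK1 were fully present, with 23 of 23 genes at 1 TPM or more in every library and 3 called variable. Tnfaip3, which encodes the ubiquitin editor A20, led at 958 ± 152 TPM (SD, n = 4), followed by the kinase gene Mapkapk2 at 176.28, 395.68, 197.76 and 397.39 TPM. Its product MK2 phosphorylates RIPK1, and Mapkapk2 was called variable, with replicates 2 and 4 high. Birc3, which encodes the ubiquitin ligase cIAP2, had 80.32, 183.68, 94.70 and 136.56 TPM and was called too, as was the adaptor gene Traf5 (4.74, 9.42, 6.90 and 7.07 TPM). The lowest were Tab3 (3.71 ± 1.08 TPM) and Tab1 (4.86 ± 0.966 TPM; SD, n = 4), subunits of the TAK1 complex. All 3 called genes were highest in replicate 2 or 4.

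For sensing through TRIF and nucleic acid receptors, 8 of 9 listed symbols were matched, all 8 reached 1 TPM in every library and 3 were called variable. Ddx58, the RIG-I gene, was highest on average, at 43.36, 86.79, 32.29 and 69.25 TPM, and Tlr4 followed at 38.4 ± 2.20 TPM (SD, n = 4). Tmem173, the STING gene, had 13.63, 29.49, 11.16 and 25.47 TPM, and Ticam2, an adaptor of Tlr4, had 10.24, 21.86, 18.88 and 20.31 TPM. Ddx58, Tmem173 and Ticam2 were the called genes, all highest in replicate 2. Tlr3 was lowest at 11.1 ± 2.94 TPM (SD, n = 4).

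Among apoptotic caspases and mitochondrial factors, 15 of 16 genes reached 1 TPM in every library and 1 was called variable. That gene, Cycs, encodes cytochrome c and had 47.12, 16.40, 33.34 and 22.94 TPM. The pore-forming genes Bax (135 ± 41.8 TPM) and Bak1 (69.0 ± 9.56 TPM) were highest and Casp2 (4.21 ± 0.891 TPM) and the nuclease gene Dffb (0.362 ± 0.233 TPM; SD, n = 4) lowest.

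Among necroptosis regulators and factors downstream of MLKL, 21 of 21 genes reached 1 TPM in every library and 3 were called variable. Hsp90ab1, a chaperone of RIPK3, was highest at 518 ± 178.0 TPM (SD, n = 4), followed by Ninj1 at 368 ± 92.2 TPM (SD, n = 4). Ninj1, which ruptures the membrane of dying cells, is also on the pyroptosis list, and a part of it in necroptosis was not tested. The inositol phosphate kinase genes Ippk (2.45 ± 0.909 TPM) and Itpk1 (8.60 ± 1.07 TPM; SD, n = 4), whose products support MLKL activation in human cells, were lowest. The called genes were the mitochondrial phosphatase gene Pgam5 (21.66, 11.42, 9.58 and 10.33 TPM), Hsp90aa1 (263.05, 119.32, 221.71 and 90.47 TPM) and Camk2d (70.77, 28.85, 40.80 and 36.55 TPM). None of these 3 was highest in replicate 2 or 4, unlike Zbp1.

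Of the pyroptosis genes, 11 of 11 reached 1 TPM in every library and 3 were called variable. Il1b (2923 ± 697 TPM, SD, n = 4) and Ninj1 were highest, and Nlrc4 (5.68 ± 0.578 TPM) and Gsdme (5.03 ± 2.62 TPM; SD, n = 4) lowest. Casp4, which encodes the receptor of cytosolic lipopolysaccharide, had 57.16, 122.34, 124.46 and 54.72 TPM. Il18 had 30.39, 44.33, 63.78 and 30.05 TPM, and Gsdme, a gasdermin, had 8.77, 2.67, 4.45 and 4.21 TPM. These were the called genes, with Casp4 and Il18 highest in replicate 3 and Gsdme in replicate 1. Over the 6 lists and the interferon-stimulated genes together, 28.3% of the 106 distinct genes tested were called. This pooled share mixes unlike lists, since 14 of the 19 interferon-stimulated genes were called. Each of the 6 lists had 1 to 3 called genes among 8 to 23 tested, so the pooled share does not describe them.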

How the data were processed

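The members and gene lists were chosen with earlier results of these data known. Each library had a gene table and a first transcript table, made from a transcriptome alignment, and a second transcript table made straight from the reads, all on mm10 with GENCODE M21, per the deposited lists of files. Neither the tools nor the strand setting are stated in those lists or in the labels. The tables hold expected counts and TPM deposited by the authors, TPM being scaled over all rows. The deposited credibility interval bounds of TPM are a signal of unstated level. Rows that name no gene held 0.103 to 0.118% of counts and were left out.

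Expected counts were rounded and scaled by TMM (edgeR 4.0.16, R 4.3.3; DESeq2 1.42.0 as alternative). A chi-square test on 3 degrees of freedom was run on genes averaging 10 counts or more, with Benjamini-Hochberg adjustment over all of them; it covers counting error only since fragments are not independent molecules. It was tested on simulated data. Levels were compared as log2(TPM + 0.1) by exact sign-flip permutation. Named were all members, transcripts with at least 5% of a gene's TPM, the 2 highest and 2 lowest genes of each list, its called genes where 8 or fewer, and the 3 genes most like a called member (mean count of at least 100). The macrophage markers, Ly6g and Vwf were named after their values were seen. Python 3.11.15, NumPy 2.4.6, SciPy 1.17.1 and pandas 2.3.3 were used.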

Additional observations from a re-analysis of the deposited data

How the results depend on the processing

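Of the 185 recomputed values, 162 kept their direction and side of the threshold, or moved by less than 1 SD, and none changed sign. A mean level or share cannot move by 1 SD when 1 of 4 libraries is left out, so those entries were fixed in advance. Only the log2 ratios between members could change sign, since levels, shares and counts cannot. In the second quantification the mean levels were 32.3 TPM for Ripk1, 52.2 for Casp8, 5.36 for Fadd and 158 for Cflar. Rescaling without ribosomal and mitochondrial RNA gave 45.8, 74.6, 8.01 and 223 TPM for the same genes, and the posterior mean gave Fadd 6.64 TPM. A range of at least 1.5-fold in place of 2 called 3 members (Zbp1, Ripk3 and Mlkl) and 7347 of 12626 genes, against 1 and 4167. Leaving out 1 library gave 2048 to 3683 genes called, lowest without replicate 1. It gave 1 member each time, Zbp1, of which a high and a low library always remained. The leading transcript of Ripk1 held 84.9% in the second table and 66.2% of estimated counts, against 79.8%, and that of Mlkl 73.3% in the second table, against 90.9%. Ripk3-201 held 95.1% of coding transcripts, against 85.5% of all. Cflar-205 held 92.1% of estimated counts and 82.9% of coding TPM, against 74.0%, and Zbp1-202 held 31.7% of estimated counts, against 61.6% of TPM; counts grow with transcript length. Between 4 and 6 read files, 35 genes were called by DESeq2, 18 with no filter beyond 1 count, and 0 to 98 with 1 library left out; the cause was not tested. No paired analysis was possible because all 4 libraries belong to 1 group. Transcript splits rest on reads that transcripts share, and low members such as Ripk3, at 292 to 439 counts, are the least precise.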
